A study of Mus musculus with 4 samples.

Results

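The genes described here encode collagens, laminins and other components of the extracellular matrix that meninges and blood vessels make. They were taken by gene symbol from an Affymetrix Mouse Gene 2.0 ST array: every collagen chain gene (Col, a number, a and a number), every laminin chain gene (Lama, Lamb or Lamc and a digit), and Fmod, Prelp, Lum, Ogn, Bgn, Fn1, Sparc, Nid1, Nid2, Hspg2, Aldh1a2 and Fbln1. Of 33793 probe sets, 68 matched, and they stood for 67 of 30921 gene symbols on the array: 44 collagens, 11 laminins and 12 others. A probe set is a group of probes on the array that read the same transcript. Where a gene had more than 1, as Col20a1 did, the brightest was used. The rule uses no other value, but it was set with earlier results of these data known.

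RNA came from the right hippocampus of behaviorally naive male mice at postnatal day 90, with 1 mouse per array, 2 arrays labelled IPMK cKO and 2 labelled IPMK WT. The IPMK cKO mice carry the floxed Ipmk allele (Ipmk f/f) and CaMKII-Cre, which is active in excitatory neurons of the forebrain. Their littermates of the IPMK WT group carry Ipmk f/f without Cre, so that the floxed allele is common to both. The comparison asks how loss of inositol polyphosphate multikinase (IPMK) in these neurons alters hippocampal transcripts; the fibroblasts, endothelium and mural cells that make most matrix are not the cells in which Cre is driven. The arrays are called cKO 1, cKO 2, WT 1 and WT 2 by their labels and replicate numbers. Ipmk itself went against the labels. Its brighter probe set read 8.44 and 8.78 in the arrays labelled IPMK cKO and 7.68 and 7.71 in those labelled IPMK WT. Its further probe set read 6.97 and 6.43 against 5.78 and 5.52. The log2 fold changes, IPMK cKO minus IPMK WT, were 0.92 and 1.05. The floxed exon is not named in the sources used here, so it is not known whether these probes lie in the deleted part. Why Ipmk read higher was not tested, and every direction below is that of the labels. All values are on the log2 scale after robust multi-array averaging (RMA), array medians lay between 5.1 and 5.15, and precision is limited by having 4 arrays. Markers of excitatory hippocampal neurons were bright in every array (10 of 10 measured, mean log2 level 9.83 and 9.54 in the arrays labelled IPMK cKO and 9.75 and 9.66 in those labelled IPMK WT).

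Collagens are built from 3 chains wound into a triple helix. Types I, III and V form the fibrils of connective tissue, whereas type IV forms the sheet of basement membranes, the thin layers on which endothelium and epithelium rest. Laminins, each an assembly of an alpha, a beta and a gamma chain, form a second network in the same sheets, and nidogens and perlecan tie the networks together. In the brain these proteins surround vessels and line the inner face of the meninges, whose fibroblasts also make fibrillar collagens and small leucine-rich proteoglycans, which bind collagen fibrils. The parenchyma, made of neurons and glia, holds little fibrillar collagen. In bulk RNA, fewer cells of a type and less RNA per cell cannot be told apart.

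For a few genes that read differently in arrays of the same label, and for Prelp, the DNA just before the annotated start is shown. Each line gives the last 150 bases before the gene start in RefSeq (build GRCm38.p6), from 5′ to 3′ on the strand of the gene. Capitals mark CCAAT, the letters of the CCAAT box, searched on both strands (CCAAT and ATTGG). The windows are chr9:71215639-71215788 on the plus strand for Aldh1a2, which encodes an enzyme of retinoic acid synthesis, and chr1:134037104-134037253 on the plus strand for Fmod, which encodes fibromodulin. For Ogn, which encodes osteoglycin, and Col1a2, which encodes the alpha 2 chain of type I collagen, they are chr13:49607865-49608014 and chr6:4505468-4505617, both on the plus strand. For Prelp, a gene of the same proteoglycan family as Fmod whose arrays ran the other way, the window is chr1:133921402-133921551 on the minus strand, and the start given for it lies inside the annotated span of the gene. These genes were chosen after their values were seen.
Aldh1a2: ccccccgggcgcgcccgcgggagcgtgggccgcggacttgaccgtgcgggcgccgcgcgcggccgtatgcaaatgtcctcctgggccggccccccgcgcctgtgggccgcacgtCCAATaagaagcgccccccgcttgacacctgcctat
Fmod: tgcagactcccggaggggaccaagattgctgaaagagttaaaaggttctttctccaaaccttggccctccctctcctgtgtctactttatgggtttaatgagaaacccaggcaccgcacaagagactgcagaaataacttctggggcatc
Ogn: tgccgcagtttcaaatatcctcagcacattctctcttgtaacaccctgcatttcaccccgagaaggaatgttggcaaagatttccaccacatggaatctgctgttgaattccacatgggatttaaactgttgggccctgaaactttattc
Col1a2: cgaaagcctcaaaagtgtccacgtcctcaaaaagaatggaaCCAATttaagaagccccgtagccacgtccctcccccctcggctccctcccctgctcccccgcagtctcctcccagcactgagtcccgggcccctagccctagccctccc
Prelp: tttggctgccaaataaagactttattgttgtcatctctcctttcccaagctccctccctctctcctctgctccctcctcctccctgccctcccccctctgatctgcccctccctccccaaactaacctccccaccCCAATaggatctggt
The motif stood 36 bases before the start of Aldh1a2, 109 before that of Col1a2 and 15 before that of Prelp, and these letters were not in the windows of Fmod and Ogn. Over the 54 promoters given for 49 of the members, 11 held it (20.4%), against 8047 of 32851 promoters of all genes (24.5%). Aldh1a2 and Col1a2, with these letters, and Fmod and Ogn, without them, had the same order of arrays. Whether the motif bears on that order was not tested.

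Within both labels, the arrays of replicate 1 read higher than those of replicate 2 in most matrix genes. Of the 67 genes, 53 were higher in cKO 1 than in cKO 2, where 52% of all probe sets were, and 53 were higher in WT 1 than in WT 2, where 49.4% of all probe sets were. In 38 genes both replicate 1 arrays lay above both replicate 2 arrays (22.7% of all probe sets did so), and in 4 both lay below (22%). The median deviation of the genes from their own mean over the 4 arrays was 0.084 in cKO 1, −0.089 in cKO 2, 0.089 in WT 1 and −0.085 in WT 2. Over all probe sets the median deviations lay between −0.01 and 0.006. An excess of replicate 1 over 1.5-fold occurred in 5 genes between the arrays labelled IPMK cKO (2.18% of all probe sets) and in 9 between those labelled IPMK WT (1.99%). Mean log2 levels lay between 4 and 6, as the array medians did, in 41 of the 67 genes, and at 6 or more in 26. Whether mice of the same replicate number share a litter or a day is not stated in the labels.

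**Figure D1:**
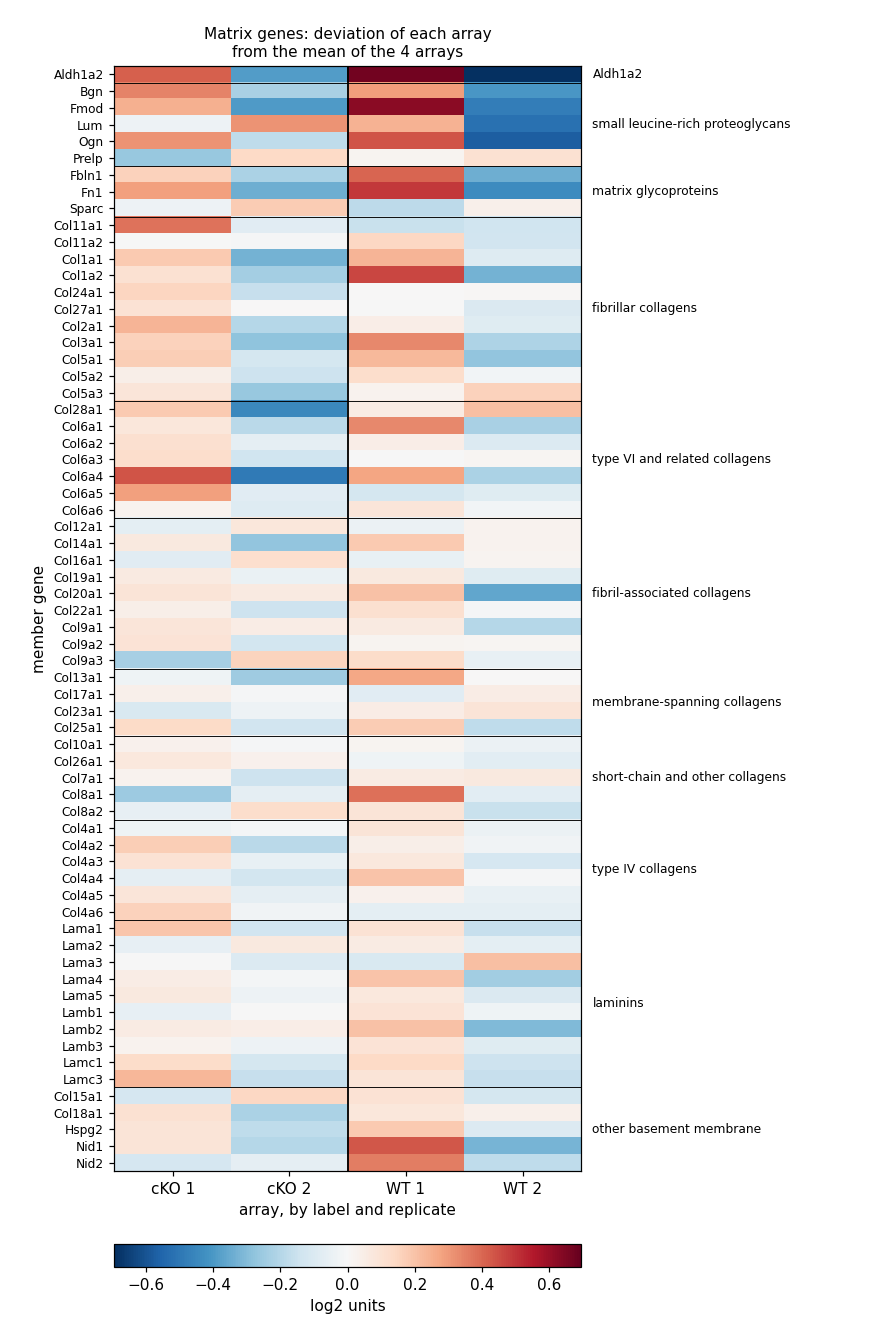
Heat map of 66 of the 67 matrix genes (rows, grouped by role) in the 4 arrays (columns, cKO 1, cKO 2, WT 1 and WT 2), with colour for the deviation of an array from the mean of the 4 arrays in log2 units (red higher, blue lower). The cKO 1 and WT 1 columns are mostly red and the cKO 2 and WT 2 columns mostly blue, as in the 38 genes in which both replicate 1 arrays lay above both replicate 2 arrays.

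As readings of meningeal and vascular matrix, the arrays were therefore spread within each label. Of the arrays labelled IPMK cKO, cKO 1 was the highest of the 4 in 21 of the 67 genes (27% of all probe sets) and the lowest in 7 (25.3%), whereas cKO 2 was the highest in 9 (25.1%) and the lowest in 20 (29.4%). Of those labelled IPMK WT, WT 1 was the highest in 31 (25%) and the lowest in 5 (24%), whereas WT 2 was the highest in 6 (22.9%) and the lowest in 35 (21.3%). The order WT 1, cKO 1, cKO 2, WT 2 from high to low, looked for after the values had been seen, was met by 18 genes, or by 4.68% of all probe sets. In that order the arrays labelled IPMK cKO stand between those labelled IPMK WT.

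Aldh1a2, whose product makes retinoic acid and which marks meningeal fibroblasts, had the widest spread. Its probe set read 7.58 in cKO 1 and 6.78 in cKO 2, against 7.84 in WT 1 and 6.48 in WT 2. The replicate 1 arrays were high and the replicate 2 arrays low under both labels, and the labels overlapped. The excess of cKO 1 over cKO 2 was 1.75-fold and that of WT 1 over WT 2 was 2.57-fold. The log2 fold change between labels, IPMK cKO minus IPMK WT, was 0.03 with a 95% confidence interval from −1.17 to 1.22. A range of at least 1 log2 unit over the 4 arrays occurred in 3 of the 67 genes (Aldh1a2, Fmod and Ogn) and in 1.62% of all probe sets (1.22% of those with a mean of at least 4, as all 67 genes had). A range over 0.5 occurred in 21 of the 67 (19.8% and 16.1%).

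Of 5 small leucine-rich proteoglycans, 3 had both replicate 1 arrays on top. Fmod encodes fibromodulin, which binds collagen fibrils and regulates their assembly. It read 7.98 in cKO 1 and 7.34 in cKO 2, against 8.36 in WT 1 and 7.25 in WT 2. Ogn, which encodes osteoglycin, read 8.11 and 7.62 in the arrays labelled IPMK cKO, against 8.23 and 7.22 in those labelled IPMK WT. In each of these genes replicate 1 was the higher array under both labels. WT 1 exceeded WT 2 by 2.16-fold in Fmod and by 2.01-fold in Ogn, whereas the differences between labels were −0.14 (95% confidence interval −1.13 to 0.84) and 0.13 (−0.74 to 1.01). Bgn, which encodes biglycan, read 9.69 and 9.12 against 9.63 and 8.94, again with both replicate 1 arrays above both replicate 2 arrays.

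Lum and Prelp of the same family did not share this order. Lum, which encodes lumican, read 5.22 and 5.57 in the arrays labelled IPMK cKO and 5.50 and 4.74 in those labelled IPMK WT, so that only WT 2 stood low. Prelp encodes a proteoglycan that anchors basement membranes to the connective tissue beside them, and it read 9.63 in cKO 1 and 10.02 in cKO 2, against 9.91 in WT 1 and 9.99 in WT 2. Its replicate 2 arrays were above its replicate 1 arrays, and cKO 1 was the lowest. Prelp lies 107151 bases from Fmod on chromosome 1 (133910304 to 133930102 for Prelp and 134037254 to 134048280 for Fmod), and the arrays of these neighbours ran in opposite orders.

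**Figure D2:**
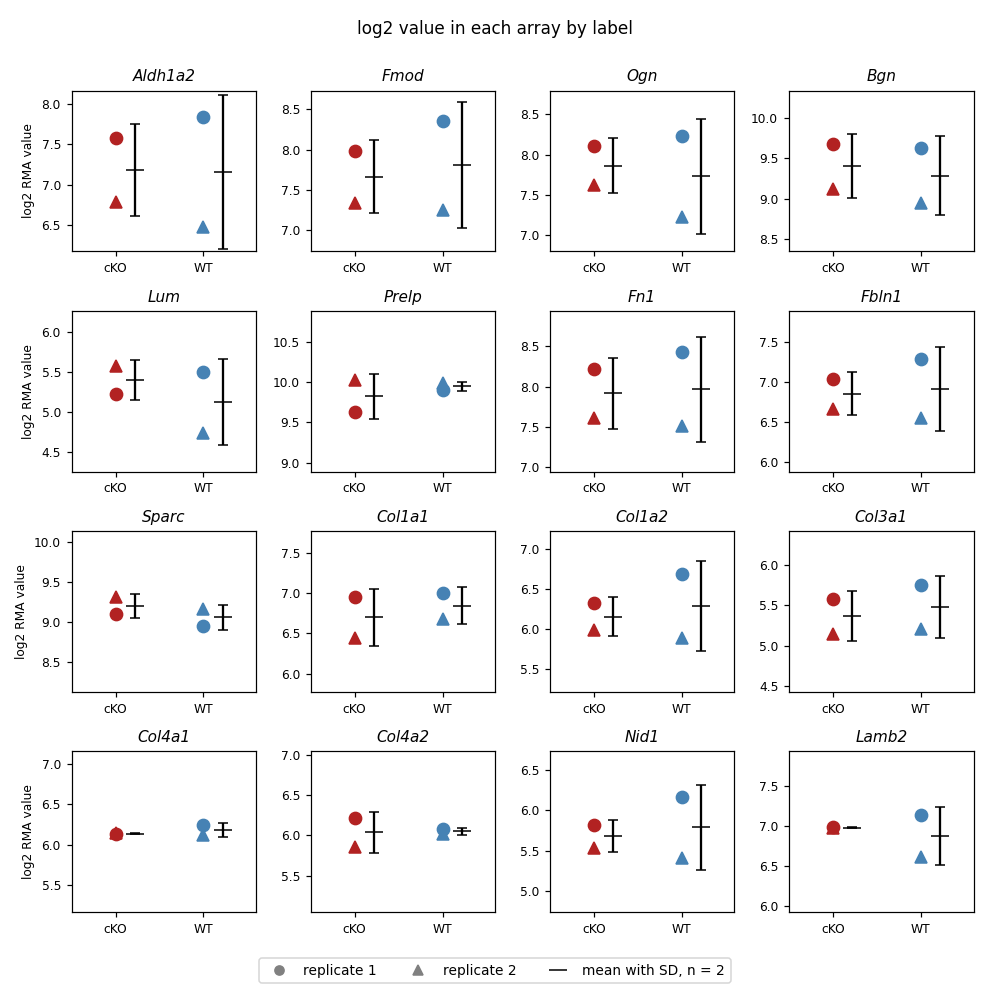
log2 RMA values of 16 matrix genes in each array, with arrays labelled IPMK cKO in red on the left and those labelled IPMK WT in blue on the right of each panel, replicate 1 as circles, replicate 2 as triangles, and the mean with SD (n = 2) as black bars; each panel spans 2 log2 units. Aldh1a2, Fmod, Ogn and Fn1 have circles well above triangles under both labels, and Prelp and Sparc have triangles above circles.

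Of 3 matrix glycoproteins, Fn1 and Fbln1 had the order of Fmod and Ogn. Fn1 encodes fibronectin, which links collagens to integrins on the cell surface, and read 8.23 and 7.61 in the arrays labelled IPMK cKO, against 8.43 and 7.51 in those labelled IPMK WT. Fbln1, which encodes fibulin 1, a protein of basement membranes and elastic fibres, read 7.04 and 6.66 against 7.29 and 6.54. In Fn1 the excess of replicate 1 was 1.54-fold under the label IPMK cKO and 1.90-fold under IPMK WT. Sparc encodes a collagen-binding glycoprotein that endothelium and glia also make, and read 9.10 and 9.31 against 8.95 and 9.17. In Sparc the replicate 2 array was the higher under both labels.

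The fibrillar collagens of connective tissue showed the order at lower contrast. Col1a1 and Col1a2 encode the chains of type I collagen, the main collagen of fibroblasts. Col1a1 read 6.95 and 6.44 in the arrays labelled IPMK cKO, against 7.01 and 6.68 in those labelled IPMK WT, and Col1a2 read 6.32 and 5.98 against 6.68 and 5.89. Col3a1, of type III collagen, read 5.58 and 5.15 against 5.76 and 5.21. In all of these both replicate 1 arrays lay above both replicate 2 arrays. The same held for Col5a2 of type V collagen, 24624 bases from Col3a1 on chromosome 1, at 5.59 and 5.41 against 5.68 and 5.54, and in all for 7 of 11 fibrillar collagens. The median deviation of the 11 was 0.148 in cKO 1, −0.160 in cKO 2, 0.122 in WT 1 and −0.100 in WT 2. The 4 exceptions were Col5a3, Col11a1, Col24a1 and Col27a1. Col5a3 read 5.97 and 5.62 in the arrays labelled IPMK cKO, against 5.91 and 6.04 in those labelled IPMK WT, and Col11a1 read 6.08 in cKO 1 and between 5.55 and 5.62 in the other arrays. Col24a1 read 5.30 and 4.99 against 5.15 and 5.16, and Col27a1 6.26 and 6.16 against 6.15 and 6.06.

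Type VI collagen forms beaded filaments around cells, and 4 of 7 genes of this group met the order by replicate. Col6a1 read 7.30 and 7.03 in the arrays labelled IPMK cKO and 7.55 and 7.00 in those labelled IPMK WT. Its neighbour Col6a2, 85161 bases away on chromosome 10, read 6.44 and 6.27 against 6.37 and 6.23. Both had their replicate 1 arrays on top, with a wider gap between the arrays labelled IPMK WT in Col6a1 (1.47-fold) than in Col6a2 (1.10-fold). Col6a4 varied most in this group, at 4.52 and 3.59 against 4.36 and 3.86, and its replicate 2 values lay under 4, a level below which 29.1% of all probe sets had their mean. Col28a1, of a related collagen, stood low in cKO 2 alone (4.62 and 4.00 against 4.50 and 4.66).

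Of 22 basement membrane genes, 13 met the order by replicate and 0 the reverse. Their median range was 0.319, beside 0.307 for all probe sets and 0.282 for those with a mean of at least 4. A range over 0.5 occurred in 4 of the 22. Col4a1 and Col4a2 encode the type IV chains found in nearly all basement membranes, and lie on chromosome 8 on opposite strands with annotated spans that overlap. Col4a1 read 6.13 and 6.14 in the arrays labelled IPMK cKO, against 6.25 and 6.12 in those labelled IPMK WT, a range of 0.13. Col4a2 read 6.22 and 5.86 against 6.08 and 6.02. The arrays did not share an order between these neighbours, and no gene of the 6 for type IV collagen had a range over 0.5. Col4a3 to Col4a6 encode chains of more restricted basement membranes, such as those of the kidney. Col4a3 read 5.01 and 4.86 against 4.99 and 4.80, and its neighbour on chromosome 1, Col4a4, 4.73 and 4.67 against 5.00 and 4.79. Col4a5 read 5.25 and 5.10 against 5.19 and 5.11, and its neighbour on the X chromosome, Col4a6, 4.72 and 4.54 against 4.49 and 4.49. In Col4a3 and Col4a5 both replicate 1 arrays were on top, which they were not in Col4a4 and Col4a6.

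The nidogens and Lamb2 had ranges over 0.5. Nid1 encodes nidogen 1, which links laminin to type IV collagen, and read 5.82 and 5.54 in the arrays labelled IPMK cKO, against 6.16 and 5.41 in those labelled IPMK WT. Nid2, which encodes nidogen 2, read 5.85 and 5.90 against 6.32 and 5.79, with WT 1 alone raised. Lamb2, a laminin beta chain of vascular and meningeal basement membranes, read 6.98 and 6.97 against 7.13 and 6.62, with WT 2 alone low. In these genes WT 1 exceeded WT 2 by 1.69-fold, 1.44-fold and 1.43-fold.

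Lama2, Lamb1 and Lamc1, laminin chains common in brain vessels, had narrower ranges than the nidogens and Lamb2. Lama2, the alpha chain made by astrocytes and mural cells, read 6.36 and 6.49 in the arrays labelled IPMK cKO, against 6.47 and 6.35 in those labelled IPMK WT. Lamb1 read 6.94 and 6.99 against 7.09 and 6.97, and Lamc1, the gamma chain it commonly joins, read 7.38 and 7.13 against 7.39 and 7.11. Lamc1 had both replicate 1 arrays on top, which Lamb1 and Lama2 had not. Lama3 ran the other way within the label IPMK WT, at 5.30 and 5.20 against 5.20 and 5.51. Of 11 laminins, 9 were lowest in WT 2. Col18a1, whose product is a basement membrane collagen with heparan sulfate chains, read 5.12 and 4.80 against 5.10 and 5.05.

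Among the remaining collagens the order by replicate was mixed. Fibril-associated collagens, which sit on the surface of fibrils, met the order by replicate in 6 of 9 and the reverse in 2, Col12a1 and Col16a1. The widest range here, 0.56, was that of Col20a1 (5.58 and 5.55 in the arrays labelled IPMK cKO, against 5.69 and 5.13 in those labelled IPMK WT), but the dimmer probe set of this gene read 5.39 and 5.38 against 5.38 and 5.51 and did not repeat the low value of WT 2. Membrane-spanning collagens met it in 1 of 4. That gene was Col25a1, a collagen of neurons, at 6.81 and 6.54 against 6.85 and 6.50. Col8a1, a short-chain collagen of vascular and other endothelium, stood high in WT 1 alone (5.93 and 6.12 against 6.56 and 6.11).

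Markers of meningeal fibroblasts that are not among the 67 genes ran in the same order. Of 15, 13 had both replicate 1 arrays above both replicate 2 arrays and 0 had the reverse, and their median deviation was 0.109 in cKO 1, −0.193 in cKO 2, 0.366 in WT 1 and −0.233 in WT 2. Their mean log2 level was 7.02 and 6.70 in the arrays labelled IPMK cKO, against 7.24 and 6.61 in those labelled IPMK WT, and none lay under a mean of 4. The GABA transporter gene Slc6a13, which is active in these fibroblasts, read 7.36 and 6.81 against 7.73 and 6.51, and Slc6a20a, of an amino acid transporter, 9.31 and 8.75 against 9.73 and 8.55. Among 11 mural cell markers, 6 had the order, and the widest range was that of Acta2, of smooth muscle actin, at 8.82 and 7.73 against 8.99 and 7.63. Rgs5, a pericyte gene, did not have it (9.88 and 10.21 against 10.08 and 10.07).

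Of 14 endothelial markers, 5 had both replicate 1 arrays on top and 3 the reverse. Their median range over the 4 arrays was 0.374, beside 0.354 for the matrix genes. It was 0.307 for all probe sets and 0.282 for those with a mean of at least 4. The endothelial ranges ran from 0.088 to 0.575. The narrowest was that of Pecam1, an adhesion molecule of all endothelium, at 7.33 and 7.35 in the arrays labelled IPMK cKO, against 7.38 and 7.29 in those labelled IPMK WT. The widest was that of Eng, a receptor subunit of endothelium, at 7.53 and 7.40 against 7.52 and 6.95. Their mean log2 level was 6.86 and 6.92 against 6.99 and 6.86. Choroid plexus markers had an order of their own. All 10 were lowest in cKO 1, with a mean log2 level of 7.70 in cKO 1 and 8.47 in cKO 2, against 8.54 in WT 1 and 8.21 in WT 2. Of the 67 matrix genes, 7 were lowest in cKO 1: Prelp, Col8a1, Col9a3, Col12a1, Col16a1, Col23a1 and Lamb1. For glia the order by replicate was turned round, with both replicate 1 arrays below both replicate 2 arrays in 10 of 10 astrocyte, 10 of 10 oligodendrocyte and 9 of 10 microglial markers. Excitatory neuron markers ran the way of the matrix genes in 7 of 10 and the reverse way in 1, with median deviations of 0.139 in cKO 1, −0.163 in cKO 2, 0.041 in WT 1 and −0.054 in WT 2. Of 10 markers of GABA interneurons, 3 ran each way. Red blood cell genes were highest in cKO 1 (5 of 5, mean log2 level 6.85 and 6.53 against 6.21 and 6.48). A further 2 listed were not measured. By label means, all 5 were higher under IPMK cKO (median log2 fold change 0.306), and all 10 choroid plexus markers were lower (−0.307). Border macrophage markers met the order of the matrix genes in 5 of 6. These were dim, at mean log2 levels of 5.01 and 4.85 against 5.06 and 4.86, with 1 under a mean of 4. Their median range was 0.293. The part of each of these cell types in the readings of the matrix genes was not tested.

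**Figure D3:**
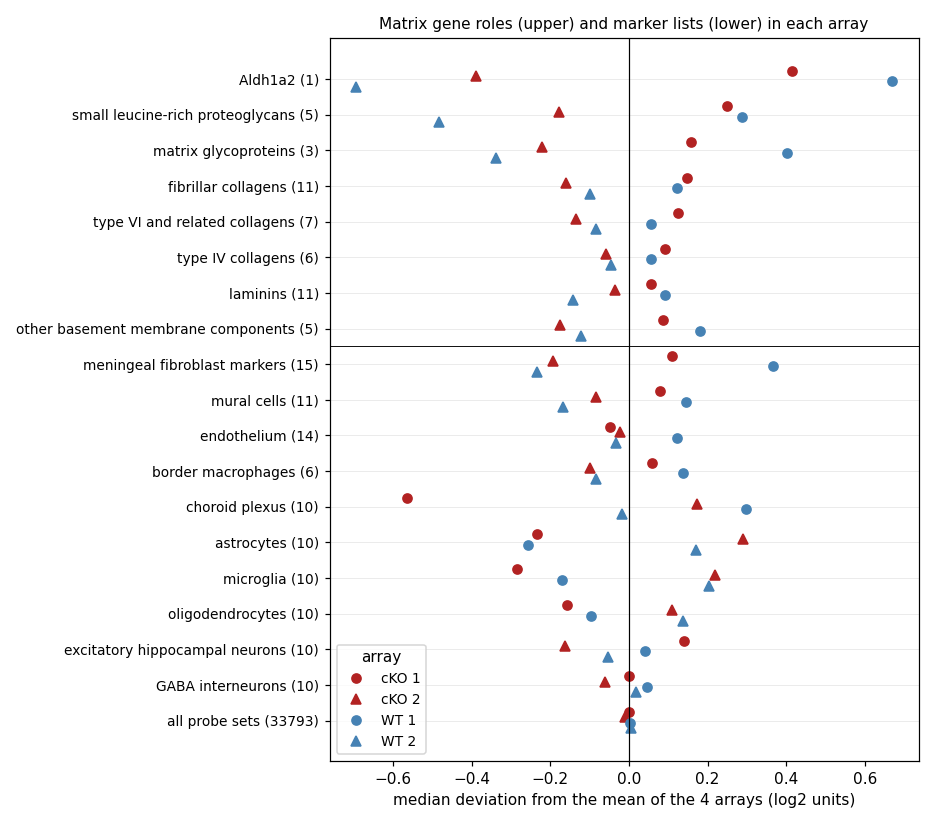
Median deviation of each array from the mean of the 4 arrays (horizontal axis, log2 units) for matrix genes by role (upper rows) and for markers of cell types and all probe sets (lower rows), with the number of genes in parentheses; arrays labelled IPMK cKO are red, those labelled IPMK WT blue, replicate 1 circles and replicate 2 triangles. The matrix roles shown and meningeal fibroblast markers have circles to the right of triangles, and astrocyte, microglial and oligodendrocyte markers have the reverse. Choroid plexus markers have cKO 1 far to the left at −0.565. Fibril-associated, membrane-spanning, and short-chain, anchoring and other collagens are not shown. Among membrane-spanning collagens cKO 1 (0.004) lay to the left of WT 2 (0.028).

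Between the labels, no difference in a matrix gene passed the test. At an adjusted p under 0.05 in limma, adjusted by Benjamini-Hochberg over the whole array, 0 of the 67 passed, as did 0% of all probe sets, and 0 of the 67 passed with the rewritten local pooled error (LPE) test, which passed 2 of 33793 probe sets. The lowest adjusted p of the 67 in limma was 0.9999. At an unadjusted p under 0.05 there was 1 gene, on the higher side, beside 2.86% of all probe sets (0.979% higher and 1.88% lower). The mean was higher under the label IPMK cKO in 32 of the 67 (48.4% of all probe sets) and lower in 35. Their median log2 fold change was −0.011, beside −0.005 over all probe sets. Both arrays labelled IPMK cKO lay above both labelled IPMK WT in 6 genes (12.4% of all probe sets) and below in 4 (14.8%). These counts changed with each array left out. Without cKO 1, 15 lay above (31.5% of all probe sets) and 21 below (36.3%), and without cKO 2, 21 lay above (32.9%) and 10 below (33.1%). Without WT 1, 37 lay above (27.9%) and 8 below (30.9%), and without WT 2, 9 lay above (29.7%) and 33 below (31.9%). At an unadjusted p under 0.05 in limma there were then 1 gene without cKO 1 (4.55% of all probe sets), 2 without cKO 2 (4.08%), 3 without WT 1 (2.35%) and 1 without WT 2 (3.09%). An exact permutation test of 2 against 2 arrays could reach no p below 0.33.

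Of the genes described here without overlap between labels, Col11a1, a minor chain of fibrils, had a log2 fold change of 0.29 (95% confidence interval −0.15 to 0.73), with cKO 1 alone far from the rest. Col6a5 had 0.21, Col4a6 0.14 and Col27a1 0.10. On the lower side Col13a1, a membrane-spanning collagen, read 5.56 and 5.34 in the arrays labelled IPMK cKO and 5.86 and 5.59 in those labelled IPMK WT, a log2 fold change of −0.27 (−0.66 to 0.11). Col4a4 had −0.19 and Col23a1 −0.14. With overlapping labels, Col8a1 had −0.31 (−0.77 to 0.15), Col28a1 −0.27 and Col14a1 −0.21. In none of these did the interval leave out 0.

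The 95% confidence interval of the difference lay within 1.5-fold either way for 45 of the 67 genes, for 75.2% of all probe sets and for 80.1% of those with a mean of at least 4. Among type IV collagens it did so for 6 of 6 and among laminins for 10 of 11. Among the 9 proteoglycans, glycoproteins and Aldh1a2 it did so for 2, Prelp and Sparc. For the other 7 the interval reached beyond 1.5-fold. These intervals come from the fit without a replicate block, in which differences between replicate 1 and replicate 2 arrays count as spread. In 62 of the 67 genes the wider of the gaps between arrays of the same label exceeded the difference between the label means (83.2% of all probe sets).

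**Figure D4:**
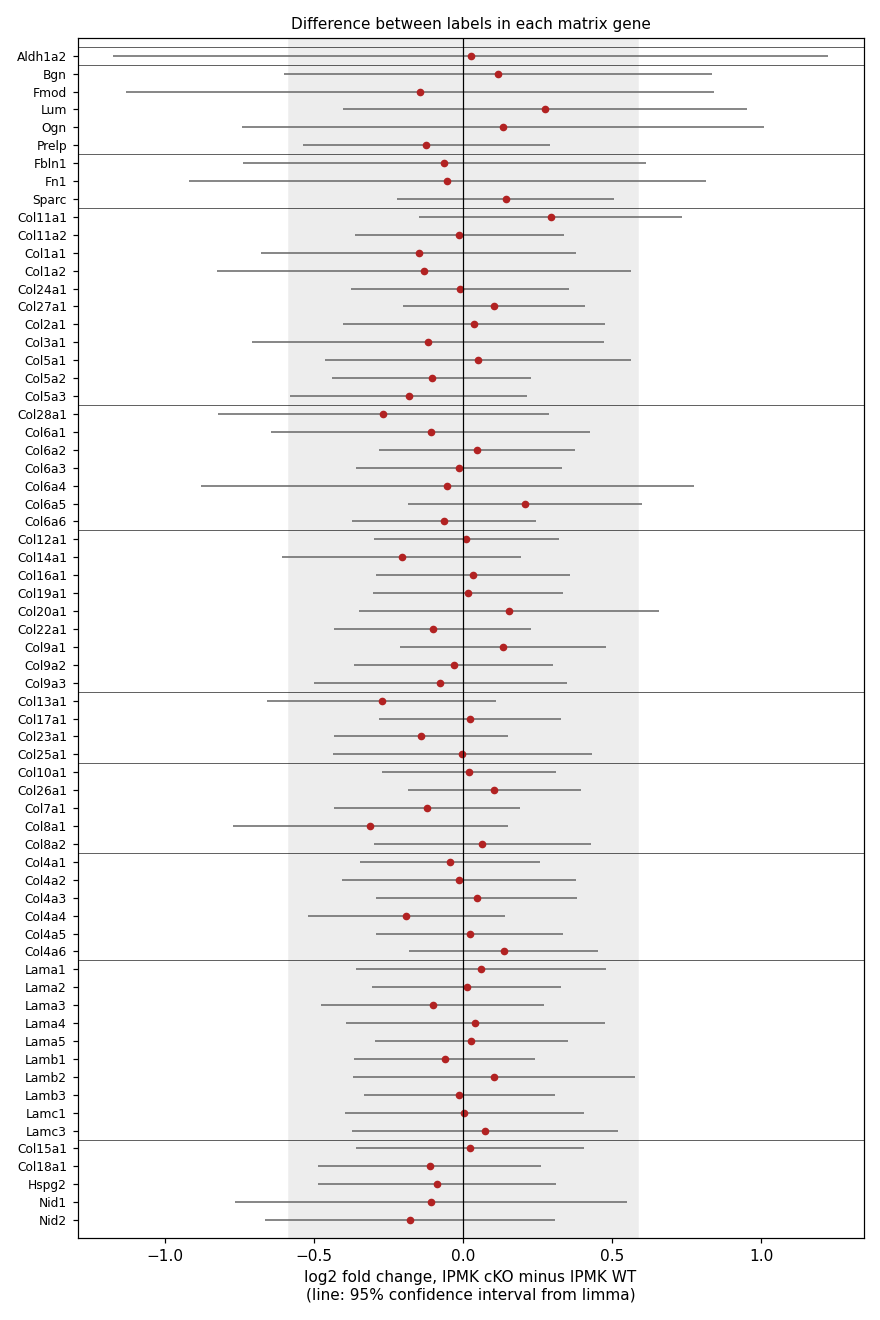
Difference in log2 value by label, IPMK cKO minus IPMK WT (points), with its 95% confidence interval from limma (lines) for 66 of the 67 matrix genes, in the same grouping by role as the heat map; the grey band marks 1.5-fold either way. The lines drawn all cross 0, and those of Aldh1a2, Fmod, Fn1 and Ogn are among the widest.

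Genes that fold, process, cleave and bind matrix proteins also showed no difference that passed. Of 20 genes for folding, processing and crosslinking of collagen, the mean was higher under the label IPMK cKO in 14 and lower in 6. The median log2 fold change was 0.021, with none at an unadjusted p under 0.05 in limma. Those with the lowest p were Loxl3, of a lysyl oxidase that crosslinks collagen, at 0.28, and Plod1, of a lysyl hydroxylase, at −0.22. Of these 20, 5 had both replicate 1 arrays on top and 7 the reverse. Lox, the founding lysyl oxidase, was among the 5, at 4.59 and 4.06 in the arrays labelled IPMK cKO and 4.69 and 4.08 in those labelled IPMK WT.

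Of 12 matrix proteases and their inhibitors, the mean was higher in 7 and lower in 5, and the median was 0.013. Mmp2, a gelatinase, read 5.46 and 5.71 in the arrays labelled IPMK cKO, against 5.94 and 5.83 in those labelled IPMK WT, a log2 fold change of −0.30 (95% confidence interval −0.65 to 0.05). Adamts5, a protease of large proteoglycans, had 0.40 (−0.39 to 1.19), with cKO 2 alone high at 4.57. Of 14 receptors for collagen and laminin, the mean was higher in 4 and lower in 10, with a median of −0.055 and the lowest p for Itga7, a laminin-binding integrin chain, at −0.22, and for Ddr2, a collagen receptor of fibroblasts, at −0.19. None of the genes in these lists had an unadjusted p under 0.05 in limma, and 12 of the 14 receptors had an interval within 1.5-fold either way.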

How the data were processed

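Right hippocampal RNA of 4 male mice, each on its own Affymetrix Mouse Gene 2.0 ST array by the labels, was measured. The authors extracted the scans with GeneChip Command Console and made the deposited log2 values by RMA (background correction, quantile normalization and summary) in Affymetrix Expression Console, for 33793 probe sets. The methods state 4 samples per group, and values of 2 per group were analysed here. Columns with the authors' own comparison (fold, LPE statistic, adjusted p) and 4 further columns of values per array were not used. Quantile normalization hides any shift of a whole array.

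Members and lists were chosen with earlier results of these data known. Within each role, the rule for named genes took those without overlap between labels at an unadjusted p under 0.05, the 2 with the lowest p and the 2 with the widest range at a mean log2 of at least 4. Added were the 10 members with the widest range of all, a set of defining genes of fibroblast and vascular matrix, the neighbouring pairs, the 2 pathway genes of each list with the lowest p, and Ipmk. This gave 44 members, of which 1 is not reported here. Other genes were named after their values were seen. All 67 probe sets are marked as unique, hold 14 to 82 probes and matched RefSeq by Entrez identifier. The array annotation names no genome build, and coordinates printed are those of RefSeq for GRCm38.p6.

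Means, IPMK cKO minus IPMK WT, were compared over all probe sets with limma 3.58.1 under R 4.3.3 (prior variance 0.0207 at 3.69 degrees of freedom) and adjusted by Benjamini-Hochberg. The p-values cover only the spread between these arrays. The LPE test named in the methods was rewritten (100 bins, span 0.2), since its package was not at hand. Tested on simulated data for this comparison, limma found 15.7% of the 2-fold and 90.05% of the 4-fold changes put into 200 of 33793 probe sets. It made 5.25 false calls on average, and LPE found 69.5% and 99.9% with 141.7. Simulated arrays varied independently, whereas replicate differences of the real arrays correlated between labels (0.244 over all probe sets). These rates need not hold for the real arrays, in which LPE passed 2 probe sets. As alternatives, the prior was made robust or given an intensity trend, arrays were centred on their medians or quantile normalized again, dim probe sets were removed, the replicate number was used as a block, and each array was left out in turn. Figures came from matplotlib 3.10.9 under Python 3.11.15.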

Additional observations from a re-analysis of the deposited data

How the results depend on the processing

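The number of members called at an adjusted p under 0.05 was 0 under all 15 alternatives. Under the filter at a mean log2 of at least 6, which leaves 26 members, 0 had an unadjusted p under 0.05 (1.0% of the probe sets left), 1 did not overlap on the higher (13.1%) and 1 on the lower side (8.44%). With 1 array left out, where a lone array is assumed to vary like the other label, 1 to 3 members had an unadjusted p under 0.05 (2.35% to 4.55% of all probe sets), 9 to 37 did not overlap on the higher (27.9% to 32.9%) and 8 to 33 on the lower side (30.9% to 36.3%), and the median log2 fold change lay between −0.114 and 0.103. The median had another sign without cKO 2 (0.075) and without WT 1 (0.103). It also had another sign after median centring (0.009) and renewed quantile normalization (0.006). The cause was not tested. Replicate differences correlated at 0.244 between labels over all probe sets and at 0.4 over the members. Animal numbers lie closer within a replicate number than across, and controls were littermates, but no label states which mice share a litter. With a replicate block, 0 members passed after adjustment and 1 before it (beside 1502 of all probe sets, 4.44%). Of 637 values for the 44 named members under the alternatives, 585 kept their sign, and 52 uncalled values had the other sign, 49 of them with an array left out. The others were Col25a1 and Col4a2 after median centring and Lamc1 after renewed quantile normalization. Alternatives that changed only the prior, the block, the test or the probe sets kept left the log2 fold changes as they were. There the sign could not differ, so many of the 585 were fixed in advance. Values near 4 lie close to the floor of the arrays.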
